A study of Homo sapiens with 6 samples.

Results

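The 2 libraries with replicate number 3, out of 6 in the series, were set against the 4 libraries with replicate numbers 1 and 2. One number 3 library came from shENO1 cells, in which the glycolytic enzyme ENO1 was knocked down with a short hairpin RNA, and the other came from cells labelled as wild type. Each group held 3 libraries, numbered 1 to 3, no library is labelled as a control hairpin, and no other treatment is named. All cells are labelled as Daudi, a line of malignant B cells grown from a Burkitt lymphoma. However, CD79B, MS4A1 and other defining B-cell markers were at or near 0 in all 6 libraries, which goes against that label. Their values, and the limits of entries at exactly 0, are given beside the marker lists. The number 3 libraries were chosen by their expression values, because earlier results of these data showed that they stand apart, and 5 marker genes (HSPA8, HSP90AA1, NCL, CCL2 and AIF1) were named for that difference. The differences between replicate numbers are therefore given as a description, with no test. Expression was measured as FPKM, fragments per kilobase of transcript scaled to library size, and 17870 of 58273 genes had at least 0.5 FPKM in 3 or more libraries, 11904 of them protein coding. Each log2 difference below is the number 3 library minus the mean of numbers 1 and 2 on the log2(FPKM + 0.5) scale, averaged over shENO1 and wild type, with the standard error (SE) of the fit across all genes.

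Cytosolic chaperones of the HSP70 and HSP90 families and the ring-shaped chaperonin TRiC fold new proteins, and heat shock factor HSF1 can raise many of them by binding repeats of the motif GAA in their promoters. The endoplasmic reticulum (ER) has its own chaperones, which are raised through ER stress elements when unfolded proteins build up there. Ribosomes are assembled in the nucleolus by factors such as nucleolin (NCL), many of which are known targets of the transcription factor MYC. Chemokines such as CCL2 are secreted proteins that attract monocytes and other leukocytes, and AIF1 is a calcium-binding protein of monocytes and macrophages.

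The number 3 libraries resembled each other more than they resembled their own groups. Over protein-coding genes, shENO1 number 3 and wild type number 3 correlated at r = 0.9907 on the log2 scale, the highest of the 15 pairs. Either number 3 library correlated with the number 1 and 2 libraries at 0.9573 to 0.9723, while the number 1 and 2 libraries correlated among themselves at 0.9822 to 0.988. A gene was counted as higher (or lower) when the number 3 library lay above (or below) both other libraries of its own group, in shENO1 and in wild type, and the difference exceeded 0.5 log2 units. By this rule 2024 of 17870 genes were higher in number 3 (11.3%) and 2635 were lower (14.7%). Among protein-coding genes 1677 of 11904 were higher (14.1%) and 1445 were lower (12.1%), and these are the shares against which the gene groups are read. Past 1 log2 unit stood 305 genes higher (1.71%) and 593 lower (3.32%), of which 208 and 252 were protein coding (1.75% and 2.12% of protein-coding genes). IPO11, at 0.49999, lay just outside the 0.5 limit. Number 2 against number 1, a contrast that involves neither number 3 library, had 901 genes higher (5.04%) and 1090 lower (6.1%), counted where both groups went the same way and their mean difference exceeded 0.5 log2 units. Counted alike, number 3 against number 1 had 2502 higher (14%) and 3417 lower (19.1%), and number 3 against number 2 had 2121 higher (11.9%) and 2874 lower (16.1%).

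**Figure D1:**
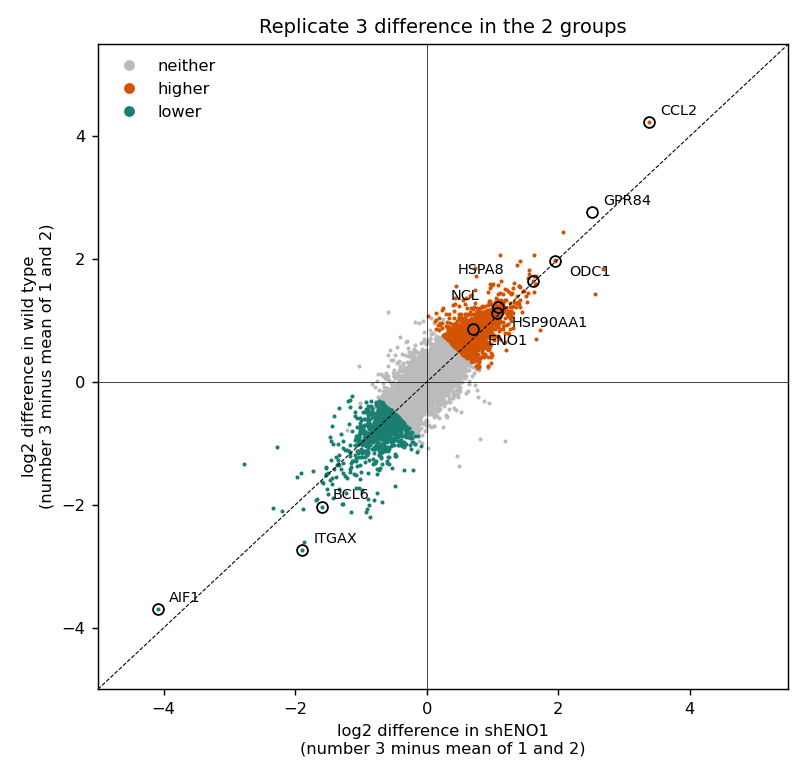
Difference between number 3 and the mean of numbers 1 and 2 in shENO1 (x axis) and in wild type (y axis), in log2 units, for 9298 protein-coding genes with a mean of at least 5 FPKM. Each point is a gene, coloured by whether it was counted as higher, lower or neither, and the dashed line marks equal differences. The points lie along the dashed line (r = 0.868 across genes, which are not independent replicates), with CCL2 at the upper end and AIF1 and ITGAX at the lower end; GPR84, with a mean under 5 FPKM, is circled in addition.

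Some properties of the libraries differed by number, depth only within each group. The estimated relative depth, with wild type number 1 set to 1, was 1.27 in shENO1 number 3 and 1.14 in wild type number 3. The 4 others had 1 to 1.19. Number 3 was the deepest library of its own group, but wild type number 3 lay below shENO1 number 2 (1.19). Fewer genes reached 0.5 FPKM, 17188 and 17145 in the number 3 libraries, against 17653 to 17961 in the others. The lower calls were concentrated in low and non-coding genes. Of 3563 long non-coding genes, 21.0% were lower and 5.7% higher, and of 2106 pseudogenes 19.7% were lower and 5.84% higher. Among protein-coding genes the share counted as higher was 7.35% below a mean of 2 FPKM and 20.6% at 50 FPKM and over, and the share counted as lower was 19.9% and 6.2% in the same classes. The part of depth or of the detection of low genes in the differences was not tested.

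HSPA8 (GRCh38 chromosome 11, 123057489 to 123063230, minus strand) encodes the constitutive cytosolic HSP70. Its level was 1246 FPKM in shENO1 number 3 and 1343 FPKM in wild type number 3, against 419 and 393 FPKM in shENO1 numbers 1 and 2 and 408 and 455 FPKM in wild type numbers 1 and 2. The number 3 libraries lay far above the other 4, which were close together whatever their group. The log2 difference was 1.63 (SE 0.07), or 3.09-fold between the mean FPKM. HSP90AA1, the inducible cytosolic HSP90, stood at 406 FPKM in shENO1 number 3 and 462 FPKM in wild type number 3, against 198 and 190.2 FPKM in shENO1 numbers 1 and 2 and 202 and 221 FPKM in wild type numbers 1 and 2. The groups of libraries did not overlap, and the log2 difference was 1.10 (SE 0.07). Nucleolin (NCL) stood at 529 and 629 FPKM in shENO1 and wild type number 3, against 234 and 267 FPKM in shENO1 numbers 1 and 2 and 243 and 300.0 FPKM in wild type numbers 1 and 2. Its log2 difference was 1.15 (SE 0.11), with number 2 above number 1 in both groups.

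CCL2, on the plus strand of chromosome 17 between 34255218 and 34257203 in GRCh38, had 82.9 FPKM in shENO1 number 3 and 163 FPKM in wild type number 3, against 9.69 and 5.77 FPKM in shENO1 numbers 1 and 2 and 9.62 and 6.999 FPKM in wild type numbers 1 and 2. Both number 3 libraries were high, and wild type number 3 lay well above shENO1 number 3. The log2 difference was 3.81 (SE 0.27), or 15.3-fold between the mean FPKM. AIF1, on the plus strand of chromosome 6 from 31615184 to 31617021, went the other way. It stood at 6.44 FPKM in shENO1 number 3 and 7.40 FPKM in wild type number 3, against 125 and 109 FPKM in shENO1 numbers 1 and 2 and 104 and 99.6 FPKM in wild type numbers 1 and 2. The log2 difference of AIF1 was -3.89 (SE 0.11), the lowest among protein-coding genes that reached 5 FPKM in either set of libraries. In bulk RNA, fewer cells of a type and less RNA per cell cannot be told apart. Over 18 alternative settings the difference of CCL2 ran from 3.38 to 4.23, that of AIF1 from -4.08 to -3.69, that of HSPA8 from 1.53 to 1.66, that of HSP90AA1 from 0.88 to 1.13 and that of NCL from 0.90 to 1.27.

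**Figure D2:**
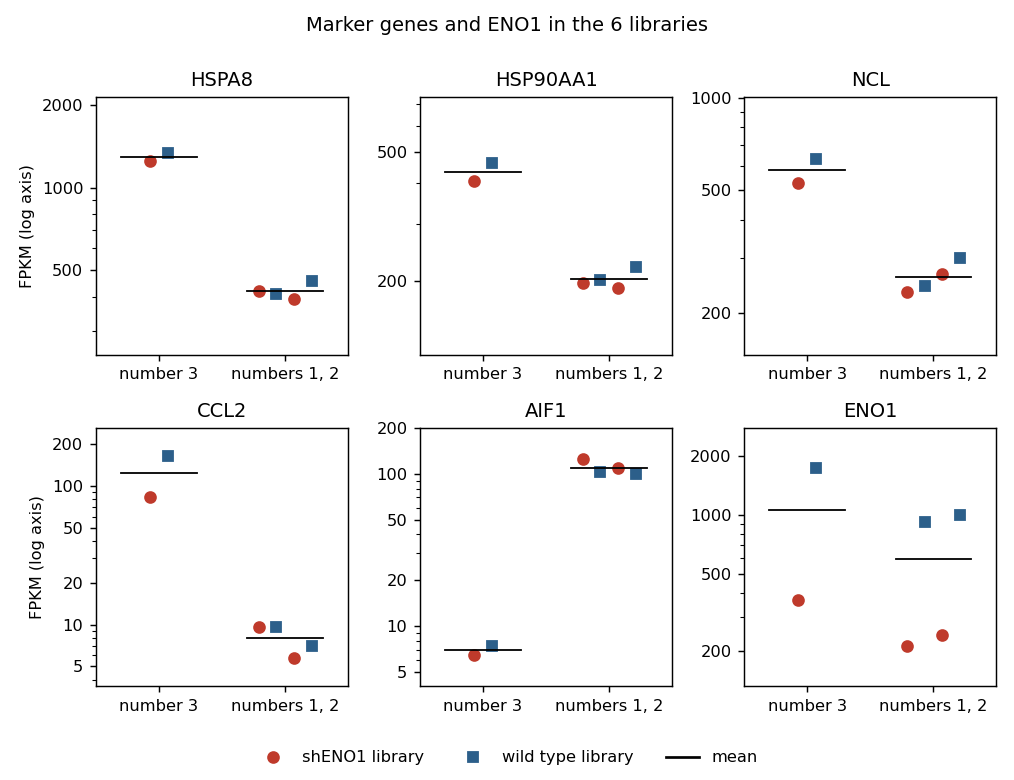
FPKM of the 5 marker genes and ENO1 (log axis, 1 panel per gene) in the number 3 libraries (left) and the number 1 and 2 libraries (right), with circles for shENO1, squares for wild type and a line at the mean. The number 3 points lie apart from the others for the 5 markers, at 1246 and 1343 FPKM against 393 to 455 FPKM for HSPA8, while ENO1 separates first by group.

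The cytosolic HSP70 system was higher in number 3. Of 22 tested genes of the HSP70 family and its co-chaperones 13 were higher and 0 lower, with a median difference of 0.55, against 14.1% higher and a median of 0.03 over protein-coding genes. DNAJA1, a J-domain protein that stimulates HSP70, stood at 63.4 and 65.8 FPKM in number 3, against 25.3 to 31.0 FPKM in the others, a difference of 1.21 (SE 0.09). The nucleotide exchange factors HSPBP1, BAG1 and HSPH1 had differences of 1.05, 1.02 and 0.97. HSPA1A, HSPA1B and HSPA1L were listed at 0 in all 6 libraries, and HSPA1A and HSPA1B are near-identical copies, so that their values are uncertain. HSPA6 stood at 1.19 and 1.52 FPKM in number 3, within the range of 0.323 to 2.63 FPKM of the others. DNAJB1, a heat shock J-domain protein, was counted as higher, at 30.4 and 30.7 FPKM, against 19.9 to 21.9 FPKM, a difference of 0.55. BAG3, a co-chaperone of stressed cells, did not exceed 1.36 FPKM in any library.

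Of 15 tested genes of the HSP90 family and its co-chaperones, 9 were higher and 1 lower (median 0.61). AHSA1, which activates the HSP90 ATPase, stood at 64.9 and 74.3 FPKM in number 3, against 29.2 to 35.0 FPKM, a difference of 1.12 (SE 0.10). Its relative AHSA2 was the lower one, at 30.3 and 31.9 FPKM, against 47.7 to 59.3 FPKM, a difference of -0.77 (SE 0.10). STIP1, which links HSP70 to HSP90, and HSP90AB1, the constitutive HSP90, had differences of 0.94 and 0.85. The chaperonin TRiC and prefoldin, which fold actin and tubulin, had 13 of 15 tested genes higher and 0 lower (median 0.74), led by CCT2 with a difference of 1.04 (SE 0.12). Mitochondrial chaperones had 8 of 11 higher and 0 lower (median 0.54). HSPE1 and HSPD1, the subunits of the mitochondrial chaperonin, had differences of 1.28 (SE 0.13) and 0.99 (SE 0.06). The small heat shock proteins and the HSF1 network had 1 of 7 higher, HSBP1, and 0 lower (median 0.00), and HSF1 itself stood at 75.5 and 67.7 FPKM in number 3, against 76.2 to 90.4 FPKM. With quantile normalization the higher counts were 10 for HSP70, 5 for HSP90, 8 for TRiC and prefoldin and 4 for the mitochondrial chaperones, and with an equal FPKM sum per library they were 8, 8, 10 and 4.

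The bases before the gene starts were searched for the heat shock element because it is the known element of chaperone genes. RefSeq starts (GRCh38.p14) were used, with 250 bases before each start, and the element was written as 3 inverted units, GAANNTTCNNGAA or TTCNNGAANNTTC, on both strands. It occurred in 0.557% of 27305 genes. Among genes with a RefSeq entry it occurred in 3 of 19 HSP70 system genes, 3 of 12 HSP90 system genes, 1 of 9 mitochondrial chaperones, 0 of 13 TRiC and prefoldin genes and 0 of 38 ribosome biogenesis genes. Each match is shown with its flanks on the strand of the gene, 5′ to 3′, the match in capitals, to set the motif beside the difference of its gene.
HSPA8 (chr11:123062171-123062199, minus strand): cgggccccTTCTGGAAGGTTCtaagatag
HSPA8 (chr11:123062346-123062374, minus strand): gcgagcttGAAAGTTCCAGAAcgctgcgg
HSP90AA1 (chr14:102087112-102087140, minus strand): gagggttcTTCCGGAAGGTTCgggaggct
HSP90AB1 (chr6:44247770-44247798, plus strand): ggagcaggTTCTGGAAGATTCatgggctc
HSP90AB1 (chr6:44247823-44247851, plus strand): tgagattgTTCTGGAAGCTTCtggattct
CHORDC1 (chr11:90223084-90223112, minus strand): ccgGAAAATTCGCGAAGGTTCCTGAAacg
HSPD1 (chr2:197500063-197500090, minus strand): gcattTTCTGGAAAGTTCTGGAAccgag
DNAJB6 (chr7:157336865-157336893, plus strand): agagccgaGAACCTTCGCGAAggtggggc
HSPA6 (chr1:161524458-161524486, plus strand): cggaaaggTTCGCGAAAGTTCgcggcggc
Of these 7 genes, HSPA8 (1.63), HSP90AA1 (1.10), HSPD1 (0.99), HSP90AB1 (0.85) and CHORDC1 (0.66), an HSP90 co-chaperone, were counted as higher. DNAJB6 (0.40) and HSPA6 (0.27) were not. With or without the element, 13 of 22 HSP70, 9 of 15 HSP90 and 8 of 11 mitochondrial chaperone genes were higher. Whether carriers differed from other members was not tested. The shorter element of 2 units, GAANNTTC or TTCNNGAA, occurred in 14.0% of all genes and in 8 of 19 HSP70 system genes. A match describes the letters of the window and does not show that a factor was bound.

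ER chaperones and genes of the unfolded protein response had 14 of 24 tested members higher and 1 lower, with a median difference of 0.63. HSPA5, the main ER HSP70, stood at 226 FPKM in shENO1 number 3 and 243 FPKM in wild type number 3, against 81.8 and 103 FPKM in shENO1 numbers 1 and 2 and 73.8 and 106 FPKM in wild type numbers 1 and 2. Its difference was 1.37 (SE 0.16), and number 2 again lay above number 1 in both groups. CALR, the calcium-binding lectin chaperone, stood at 1241 and 1338 FPKM in shENO1 and wild type number 3, against 495 and 575 FPKM in shENO1 numbers 1 and 2 and 408 and 549 FPKM in wild type numbers 1 and 2, a difference of 1.36 (SE 0.14). MANF, a secreted factor of stressed ER, SDF2L1 and HYOU1, the ER exchange factor of HSP70, had differences of 1.39, 1.34 and 1.17. The protein disulfide isomerases PDIA4, PDIA6 and PDIA3 were higher by 0.85, 0.81 and 0.63. ERN1 and ATF6, sensors of the response, and XBP1, one of its factors, were not counted as higher. ERN1 stood at 7.77 FPKM in shENO1 number 3 and 9.68 FPKM in wild type number 3, against 8.16 to 12.3 FPKM in the others. ATF6 had a difference of 0.19, and XBP1 had a difference of 0.49. CRELD1 was the lower member, at 8.65 and 8.72 FPKM, against 11.8 to 14.3 FPKM. The ATF4 amino acid response had 5 of 21 tested genes higher and 2 lower. SLC7A5, a transporter of large neutral amino acids, stood at 146 and 154 FPKM in number 3, against 47.7 to 64.0 FPKM (1.47, SE 0.12), while ASNS and SLC7A11 were lower, with differences of -0.90 (SE 0.48) and -0.60.

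The ER stress element, CCAATNNNNNNNNNCCACG on either strand, occurred in 0.0916% of all genes and in 7 of 23 ER genes with a RefSeq entry. The whole exon-free part of the window is shown for HSPA5 and CALR, the only carriers with differences over 1 log2 unit. The matches of the other carriers follow. Capitals mark the element, which can lie on either strand, and the bases run 5′ to 3′ on the strand of the gene.
HSPA5 (chr9:125241344-125241593, minus strand): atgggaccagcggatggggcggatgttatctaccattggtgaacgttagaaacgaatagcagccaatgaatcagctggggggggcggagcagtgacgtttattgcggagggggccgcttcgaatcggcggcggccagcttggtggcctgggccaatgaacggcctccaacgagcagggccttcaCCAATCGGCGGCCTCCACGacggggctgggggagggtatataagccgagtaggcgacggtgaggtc
CALR (chr19:12938359-12938577, plus strand): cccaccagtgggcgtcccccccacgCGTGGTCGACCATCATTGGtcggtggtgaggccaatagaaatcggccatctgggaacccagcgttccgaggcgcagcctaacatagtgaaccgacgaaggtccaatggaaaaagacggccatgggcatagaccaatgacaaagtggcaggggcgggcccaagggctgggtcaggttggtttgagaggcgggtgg
CANX (chr5:179698773-179698801, plus strand): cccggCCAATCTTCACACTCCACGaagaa
CRELD2 (chr22:49918549-49918577, plus strand): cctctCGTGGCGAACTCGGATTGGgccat
HSP90B1 (chr12:103930211-103930239, plus strand): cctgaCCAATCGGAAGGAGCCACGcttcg
HSP90B1 (chr12:103930316-103930344, plus strand): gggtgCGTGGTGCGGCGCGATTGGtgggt
PDIA6 (chr2:10812848-10812876, minus strand): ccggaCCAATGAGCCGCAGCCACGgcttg
XBP1 (chr22:28800598-28800626, minus strand): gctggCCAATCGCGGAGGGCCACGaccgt
Of the 7 carriers, HSPA5 (1.37), CALR (1.36), CRELD2 (0.88), HSP90B1 (0.88), PDIA6 (0.81) and CANX (0.66) were counted as higher. XBP1 (0.49) was separated in both groups but lay under the limit of 0.5. With or without the element, 14 of 24 members of the ER list were higher, and whether carriers differed from the others was not tested.

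Ribosome biogenesis was higher in number 3 in nearly all of its measured members. Of 46 tested genes 40 were higher and 0 lower, with a median difference of 0.89, and the other 6 (FBL, BOP1, WDR75, RRN3, UBTF and NOB1) had differences of 0.23 to 0.50. MRTO4, which helps to assemble the large subunit, stood at 85.6 and 93.0 FPKM in shENO1 and wild type number 3, against 24.7 and 30.4 FPKM in shENO1 numbers 1 and 2 and 28.4 and 39.0 FPKM in wild type numbers 1 and 2. Its difference of 1.55 (SE 0.15) led the list, followed by UTP20 (1.46), NOP16 (1.39) and RRP9 (1.35), which act in processing of ribosomal RNA. NPM1, the abundant nucleolar phosphoprotein, stood at 1032 and 1140 FPKM, against 558 to 623 FPKM, a difference of 0.90 (SE 0.07). The list median relative to each gene's mean over the 6 libraries was 0.54 in shENO1 number 3 and 0.65 in wild type number 3, against -0.43 and -0.28 in shENO1 numbers 1 and 2 and -0.45 and -0.05 in wild type numbers 1 and 2. Wild type number 2 thus lay between wild type number 1 and the number 3 libraries, and the median difference of number 2 minus number 1 was 0.26, with 3 of the 46 genes higher in number 2 in both groups and by over 0.5 log2 units on average. Over all alternatives 35 to 44 members were higher and 0 lower. The palindromic E-box CACGTG, read alike on both strands, occurred before 5 of 38 of these genes with a RefSeq entry and before 7.73% of all genes. In the other lists searched it occurred before 4 of 9 mitochondrial chaperones, 3 of 23 ER genes and 1 of 12 HSP90 system genes. It occurred before 0 of 19 HSP70 system genes and 0 of 13 TRiC and prefoldin genes.

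**Figure D3:**
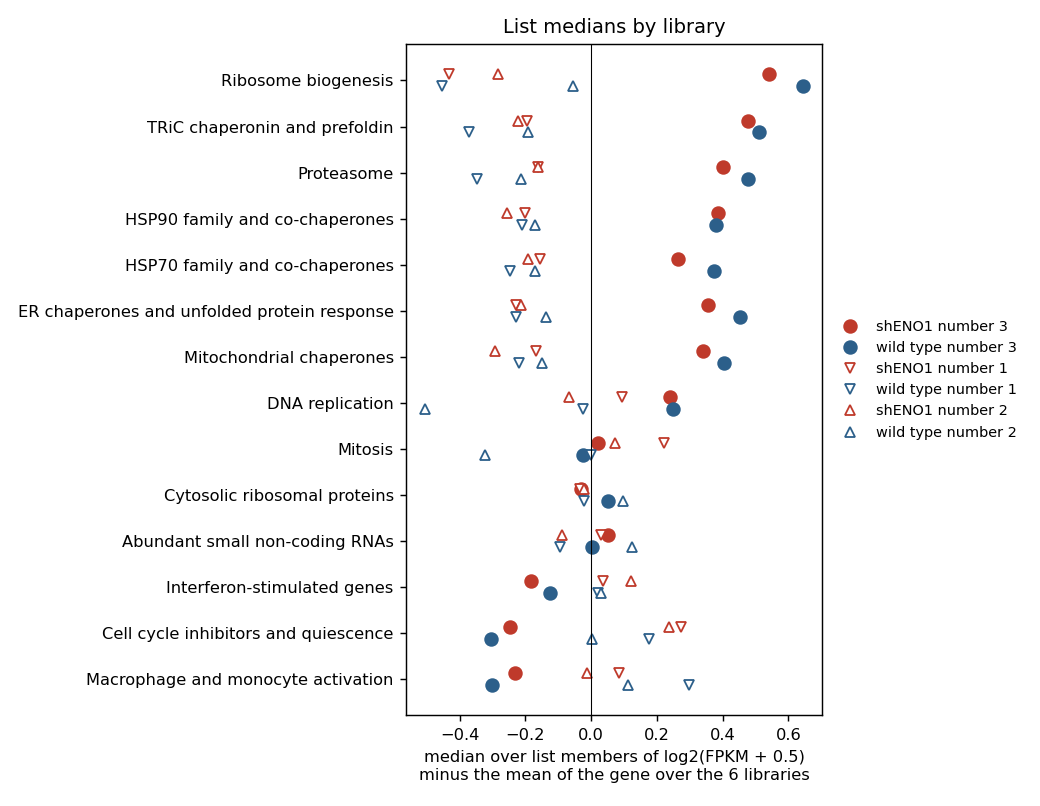
Median over the tested members of 14 gene lists, in log2 units relative to each gene's mean over the 6 libraries, with 1 symbol per library (filled circles for number 3, open triangles for numbers 1 and 2). For ribosome biogenesis the number 3 medians were 0.54 and 0.65 and the others -0.45 to -0.05, while for cytosolic ribosomal proteins the 6 medians lay between -0.03 and 0.10.

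The ribosomal proteins, which that pathway assembles into ribosomes, did not stand apart. Of 47 cytosolic ribosomal protein genes 0 were higher and 0 lower, with a median difference of 0.00, and they summed to 47144 and 48367 FPKM in the number 3 libraries, against 47161 to 51688 FPKM in the others. The 10 tested abundant small non-coding RNAs likewise had 0 higher and 0 lower. MYC stood at 140 FPKM in shENO1 number 3 and 162 FPKM in wild type number 3, against 70.7 and 115 FPKM in shENO1 numbers 1 and 2 and 78.0 and 148 FPKM in wild type numbers 1 and 2. Number 3 was the highest library within each group, number 2 lay well above number 1 in both groups, and wild type number 2 lay above shENO1 number 3. The difference was 0.61 (SE 0.28). Of the 11 tested genes of the MYC and MAX network MYC was the 1 higher gene, and MXD4 and MXD3, repressors that compete with MYC for MAX, were the 2 lower genes, at -0.88 and -0.50. ODC1, the first enzyme of polyamine synthesis and a known MYC target, stood at 124 and 133 FPKM, against 27.3 and 37.5 FPKM in shENO1 numbers 1 and 2 and 27.1 and 41.9 FPKM in wild type numbers 1 and 2, a difference of 1.95 (SE 0.20).

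Translation, protein breakdown and the supply of building blocks showed the same direction. Among translation initiation and elongation factors 13 of 32 were higher and 0 lower (median 0.45), led by EIF5A, which is activated by a polyamine, at 712 and 773 FPKM, against 287 to 340 FPKM (1.20, SE 0.09). EIF4G1 and EIF2S1 had differences of 1.07 and 1.06. Of 22 tested aminoacyl-tRNA synthetase genes 9 were higher and 0 lower (median 0.41), led by the scaffold AIMP2 (1.20). The proteasome, which degrades ubiquitin-marked proteins, had 23 of 26 tested subunits higher and 0 lower (median 0.67). PSMC3, an ATPase of its regulatory particle, stood at 61.5 and 65.5 FPKM, against 29.8 to 35.5 FPKM (0.98, SE 0.09). The 3 remaining subunits, PSMA2, PSMA1 and PSMD4, had differences of 0.50, 0.43 and 0.44. With quantile normalization 11 of 26 proteasome subunits and 5 of 22 synthetases were higher, and 0 and 1 were lower.

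Of 26 tested genes of purine, pyrimidine and one-carbon synthesis 13 were higher and 0 lower (median 0.51), and the fit gave a positive difference for each of the 26. CTPS1, which makes CTP, stood at 120.2 and 119 FPKM, against 68.7 to 72.5 FPKM (0.74, SE 0.06). PFAS, PAICS and UMPS had differences of 0.73, 0.72 and 0.71. With quantile normalization 5 of the 26 were higher. Glycolysis had 9 of 22 tested genes higher and 1 lower (median 0.47). LDHA stood at 505 and 519 FPKM, against 239 to 296 FPKM (0.95, SE 0.08), and PGAM1, SLC16A1 and PGK1 had differences of 0.93, 0.90 and 0.81. ENO3, the muscle enolase, was the lower gene, at 12.9 and 11.8 FPKM, against 20.6 to 29.4 FPKM (-0.95, SE 0.14). The hypoxia response, which shares targets with glycolysis, had 0 of 17 higher and 2 lower, BNIP3 (-0.92) and PFKFB4 (-0.80). Cholesterol synthesis and SREBP targets had 8 of 23 higher and 1 lower (median 0.44), with FASN at a difference of 0.85. Nuclear-encoded oxidative phosphorylation had 2 of 33 higher and 0 lower, and mitochondrially encoded genes had 5 of 15 higher and 0 lower (median 0.50), led by MT-ND3 and MT-CYB at 0.80. Without shENO1 number 3, where wild type alone was counted, 9 of the 15 mitochondrially encoded genes were higher and 2 lower. NRF2 and glutathione redox genes had 3 of 20 higher and 2 lower, and lysosomal genes had 3 of 25 higher and 3 lower.

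**Figure D4:**
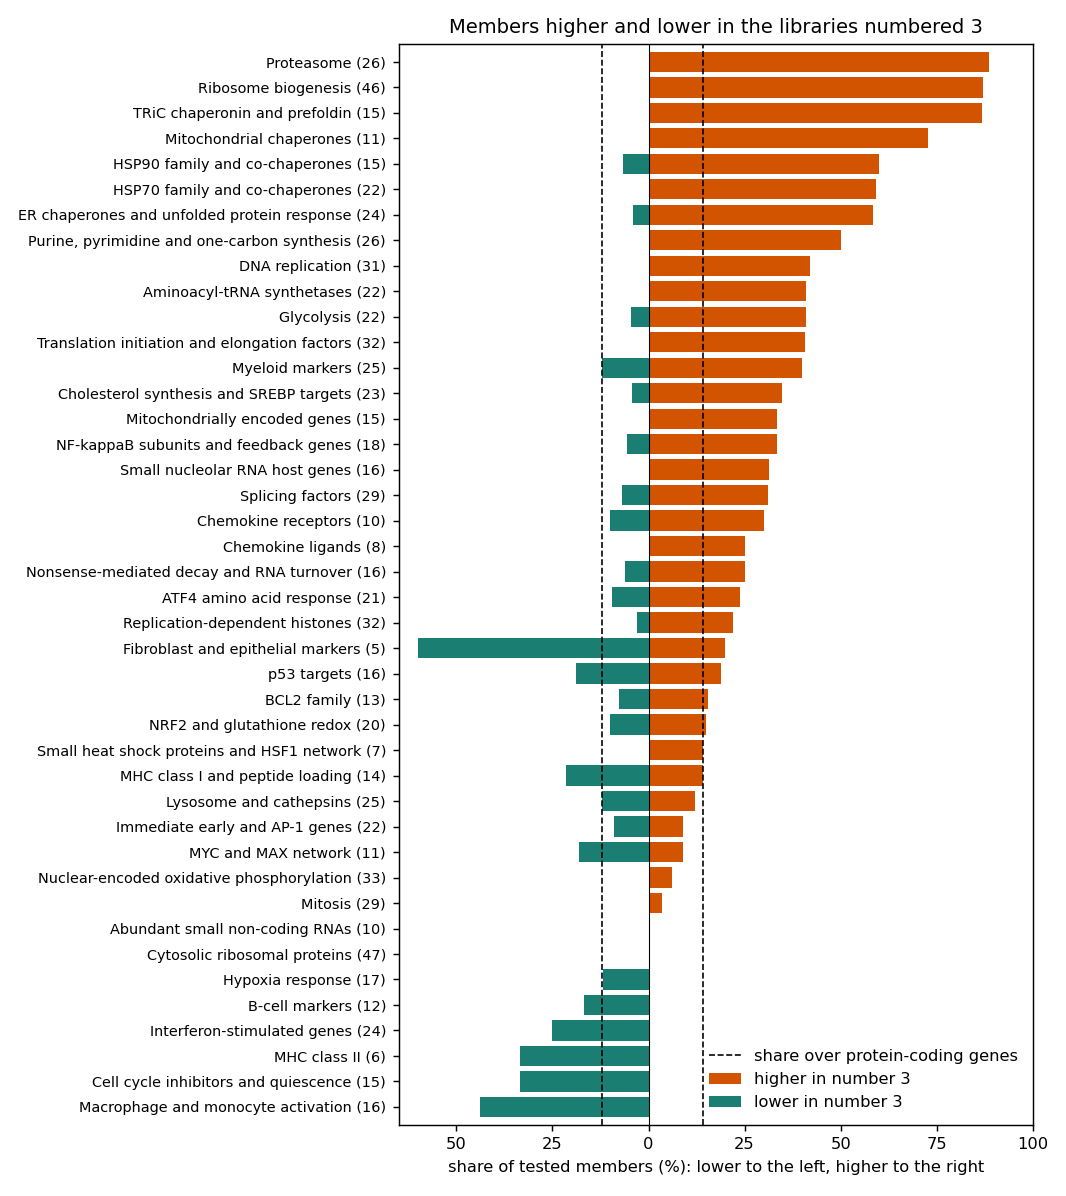
Share of tested members counted as higher (right, orange) or lower (left, green) in the number 3 libraries for the 42 gene lists with at least 5 tested members, the number tested in brackets. The dashed lines mark the shares over protein-coding genes, 14.1% higher and 12.1% lower. The proteasome (23 of 26), ribosome biogenesis (40 of 46) and TRiC and prefoldin (13 of 15) reach furthest to the right.

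In the DNA replication list 13 of 31 tested genes were higher and 0 lower (median 0.43). GINS3, part of the replicative helicase, stood at 14.1 and 16.3 FPKM, against 4.86 to 7.24 FPKM (1.29, SE 0.17). CCNE2 and CCNE1, the cyclins of S phase entry, had differences of 1.28 (SE 0.25) and 1.15 (SE 0.16). The list median was 0.24 in shENO1 number 3 and 0.25 in wild type number 3, against 0.09 and -0.07 in shENO1 numbers 1 and 2 and -0.02 and -0.50 in wild type numbers 1 and 2. Wild type number 2 was thus the low library, and the median difference of number 2 minus number 1 was -0.25, with 6 of the 31 genes lower in number 2 in both groups and by over 0.5 log2 units on average. Without wild type number 3, where shENO1 alone was counted, the higher count was 7, and with quantile normalization it was also 7. Mitosis genes had 1 of 29 higher, CCNB1 (0.63), and 0 lower (median 0.05). Replication-dependent histones had 7 of 32 higher and 1 lower, a count that ran from 3 to 10 over the alternatives. Cell cycle inhibitors and quiescence genes had 0 of 15 higher and 5 lower (median -0.36), and 15 of 15 fitted differences were negative. CCNG2, an atypical cyclin of arrested cells, stood at 11.99 and 12.9 FPKM, against 33.4 and 26.1 FPKM in shENO1 numbers 1 and 2 and 33.0 and 19.8 FPKM in wild type numbers 1 and 2 (-1.11, SE 0.22). RBL2, the RB family member of quiescent cells, and KLF6 had differences of -0.90 and -0.66. The p53 targets had 3 of 16 higher and 3 lower, with AEN (1.04) and MDM2 (0.65) among the higher ones, and the BCL2 family had 2 of 13 higher and 1 lower, the pro-apoptotic BMF, at 19.3 and 21.3 FPKM, against 42.8 to 67.1 FPKM (-1.29, SE 0.18).

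Of 8 tested chemokine ligands CCL2 and CXCL8 were higher and 0 were lower. CXCL8, which attracts neutrophils, stood at 17.2 and 21.9 FPKM in shENO1 and wild type number 3, against 7.33 and 8.11 FPKM in shENO1 numbers 1 and 2 and 6.52 and 3.56 FPKM in wild type numbers 1 and 2 (1.59, SE 0.29). CCL5 stood at 3.82 and 4.39 FPKM, against 4.21 to 4.68 FPKM, and CXCL10 at 8.38 and 17.6 FPKM, against 6.86 to 18.7 FPKM, so neither was separated. CCL7 and CCL8, which lie beside CCL2 on chromosome 17, did not exceed 0.554 FPKM in any library. Chemokine receptors had 3 of 10 higher (CXCR3, CXCR2 and CCR2) and 1 lower (CCR9), of which CXCR2 stood at 8.99 and 9.29 FPKM, against 3.01 to 6.79 FPKM (0.90). NF-kappaB subunits and feedback genes had 6 of 18 higher and 1 lower. NFKBIB, NFKBIE and NFKB1 had differences of 0.90, 0.68 and 0.66, TNF did not exceed 1.24 FPKM in any library, and BCL3 was the lower gene (-0.66). Immediate early and AP-1 genes had 2 of 22 higher, FOSL1 (1.01, SE 0.38) and DUSP2 (0.60), and 2 lower. Interferon-stimulated genes had 0 of 24 higher and 6 lower, but 3 higher and 7 lower with quantile normalization. Without shENO1 number 3, where wild type alone was counted, 5 were higher and 7 lower. The lower genes included STAT2, at 18.5 and 13.2 FPKM, against 30.8 to 36.7 FPKM (-1.06, SE 0.14), and ISG20 (-1.19, SE 0.34). MHC class I and peptide loading had 2 of 14 higher (TAP2 and PSMB10) and 3 lower, HLA-C and ERAP2 among them. MHC class II had 0 of 6 higher and 2 lower, CIITA, the master regulator of the class, at 7.71 and 8.44 FPKM, against 19.7 to 27.7 FPKM (-1.41, SE 0.15), and CD74 (-0.55).

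The myeloid genes went in both directions. Of 25 tested myeloid markers 10 were higher and 3 lower. LYZ, the secreted lysozyme, stood at 482 and 461 FPKM in shENO1 and wild type number 3, against 186 and 220.0 FPKM in shENO1 numbers 1 and 2 and 154 and 182 FPKM in wild type numbers 1 and 2 (1.35, SE 0.11). S100A8 stood at 27.5 and 31.5 FPKM, against 7.36 to 13.1 FPKM (1.64, SE 0.22), and NCF1, a subunit of the phagocyte oxidase with near-identical pseudogene copies, at 11.8 and 11.9 FPKM, against 2.99 to 3.84 FPKM (1.70, SE 0.16). ITGAX, the integrin CD11c, was lower, at 1.88 and 1.41 FPKM, against 8.19 and 8.45 FPKM in shENO1 numbers 1 and 2 and 12.5 and 11.8 FPKM in wild type numbers 1 and 2 (-2.31, SE 0.21). Macrophage and monocyte activation genes had 0 of 16 higher and 7 lower, led by AIF1. CLEC7A (-1.10, SE 0.50), CD86 (-0.82) and MARCO (-0.76) came next, and CHI3L1 stood at 149 and 172 FPKM, against 213 to 324 FPKM (-0.73, SE 0.09). With quantile normalization 2 of the 16 were higher and 6 lower. Without shENO1 number 3, where wild type alone was counted, 2 were higher and 7 lower.

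**Figure D5:**
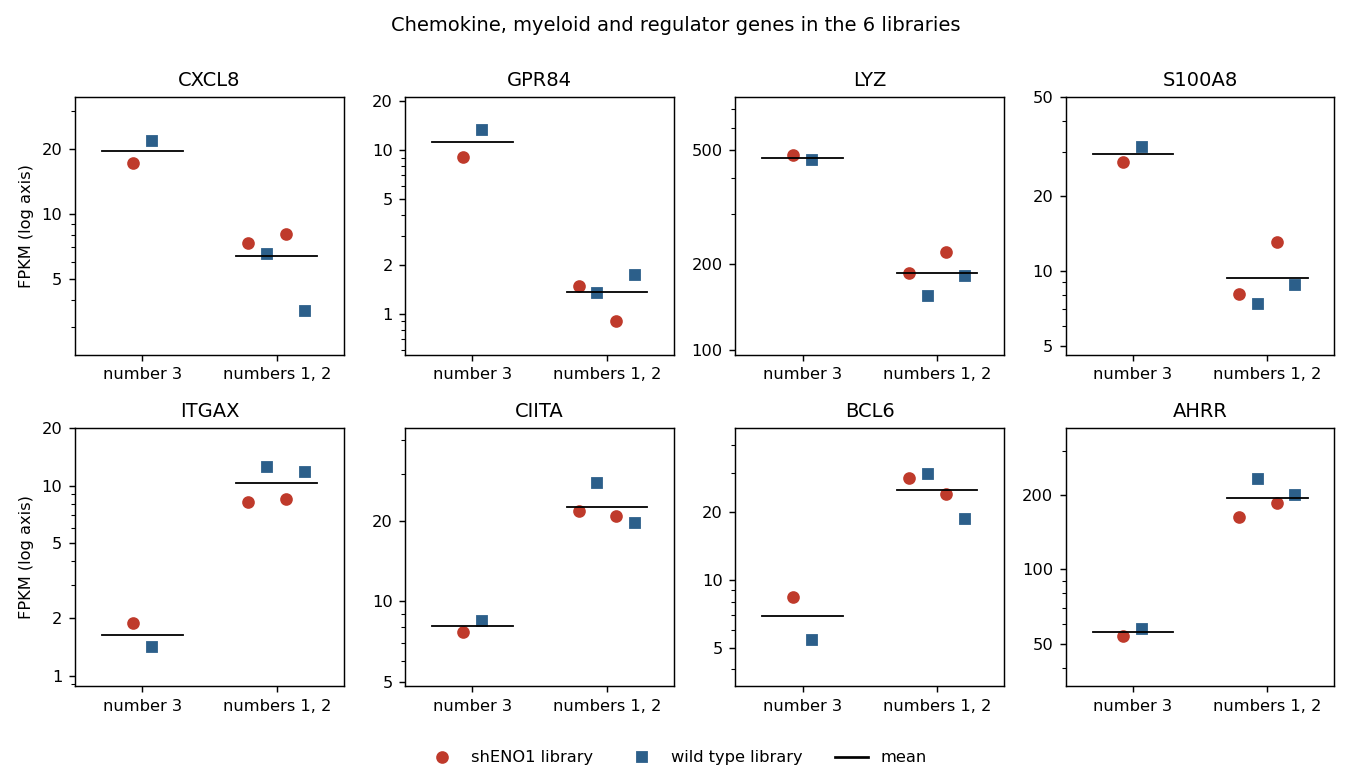
FPKM (log axis, 1 panel per gene) of 8 chemokine, myeloid and regulator genes in the number 3 libraries (left) and the number 1 and 2 libraries (right), with circles for shENO1, squares for wild type and a line at the mean. CXCL8, GPR84, LYZ and S100A8 are higher in number 3, and ITGAX, CIITA, BCL6 and AHRR are lower, with no overlap in any of the 8 panels.

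Several defining markers of a B cell were at or near 0 in all 6 libraries. Of 23 listed B-cell markers 6 were listed at 0 in all 6 libraries, CD79B, BLK, CR2, FCRLA, POU2AF1 and TCL1A. An entry of 0 in this kind of table can be a failed estimate, so these 6 are weaker evidence than low values above 0. MS4A1, which encodes CD20, did not exceed 0.101 FPKM. PAX5 stood at 2.47 to 4.49 FPKM and the immunoglobulin heavy chain gene IGHM at no more than 0.047 FPKM. The light chain gene IGKC, below the filter, stood at 2.29, 0 and 1.12 FPKM in wild type numbers 1 to 3. In shENO1 numbers 1 to 3 it stood at 0, 0.429 and 0.198 FPKM. Some genes of granulocyte and monocyte precursors were abundant, with the granule protease CTSG at 236 to 536 FPKM and the transcription factor CEBPA at 150.3 to 222 FPKM. Other myeloid markers were at or near 0. MPO did not exceed 0.161 FPKM and CD14 did not exceed 0.375 FPKM. CSF2RA was listed at 0 in all 6 libraries under both of its entries, copies on the X and Y chromosomes, so its value is uncertain. These levels held in number 3 as in the others. Of the 12 tested B-cell markers BCL6 and CD72 were the 2 lower genes and 0 were higher. The 23 listed B-cell markers summed to 101 and 106 FPKM in the number 3 libraries, against 139 to 164 FPKM. Most of that sum came from CD37, a tetraspanin that other leukocytes also carry, at 69.9 and 76.5 FPKM in number 3, against 87.4 to 111 FPKM in the others. The myeloid markers summed to 1711 and 1753 FPKM in number 3, against 1130 to 1696 FPKM in the others. T and NK cell markers had 1 of 4 higher (CD2) and 1 lower (NCAM1), with 5 of 17 listed at 0 in all libraries. Erythroid and megakaryocyte markers had 1 of 3 higher and 1 lower, with 7 of 15 at 0. The higher one was the transferrin receptor TFRC, also a gene of dividing cells, at 159 and 175 FPKM, against 73.6 to 83.5 FPKM (1.09). Fibroblast and epithelial markers had 1 of 5 higher, FN1, and 3 lower, COL1A1, ACTA2 and VIM, with 8 of 15 at 0. VIM, which leukocytes also express, stood at 203 and 206 FPKM, against 342 to 366 FPKM (-0.79).

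RNA processing genes were counted as higher more often than as lower, although less so under some alternatives. Splicing factors had 9 of 29 tested genes higher and 2 lower (median 0.32), with U2AF2 (0.88) and SRSF1 (0.83) at the top and CLK1, a kinase of splicing factors, lowest at -0.68 (SE 0.24). With quantile normalization the counts were 3 higher and 4 lower. Small nucleolar RNA host genes had 5 of 16 higher and 0 lower, led by SNHG16 (0.99) and SNHG3 (0.88). Nonsense-mediated decay and RNA turnover had 4 of 16 higher and 1 lower, the exonuclease XRN1, at 15.8 and 14.5 FPKM, against 28.1 to 29.8 FPKM (-0.91, SE 0.09).

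Ranked over protein-coding genes with a mean of at least 5 FPKM in either set of libraries, CCL2 led the higher genes. GPR84, a receptor for medium-chain fatty acids on myeloid cells, came next, at 9.06 and 13.3 FPKM in shENO1 and wild type number 3, against 1.48 and 0.903 FPKM in shENO1 numbers 1 and 2 and 1.35 and 1.73 FPKM in wild type numbers 1 and 2 (2.64, SE 0.22). The read-through genes ATP6V1G2-DDX39B (2.26, SE 0.57) and TGIF2-C20orf24 (2.25, SE 1.07) followed, whose FPKM depends on how fragments were divided between overlapping genes. The rest were SCO2, a copper chaperone of cytochrome oxidase (2.17, SE 0.34), BATF3, an AP-1 family factor (1.99, SE 0.32), RGL4 (1.96, SE 0.12), ODC1, the importin IPO4 (1.85, SE 0.18) and LANCL2 (1.77, SE 0.18). BATF3 stood at 16.6 and 13.04 FPKM in shENO1 and wild type number 3, against 3.32 and 1.70 FPKM in shENO1 numbers 1 and 2 and 4.86 and 4.22 FPKM in wild type numbers 1 and 2. IPO4 stood at 32.5 and 57.4 FPKM in shENO1 and wild type number 3, against 9.28 to 16.1 FPKM. Without wild type number 1 the difference of TGIF2-C20orf24 was 1.35, against 3.10 without wild type number 2.

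Below AIF1 and ITGAX among the lower genes stood YPEL5, at 5.16 and 3.27 FPKM in shENO1 and wild type number 3, against 19.9 to 23.3 FPKM (-2.23, SE 0.18), AC099489.1 (-2.19, SE 0.35), SMIM14, at 3.96 and 4.61 FPKM, against 18.4 to 22.9 FPKM (-2.15, SE 0.13), and GOLGA8N (-2.06, SE 0.40). GOLGA8N belongs to a family of near-identical copies, so its values are uncertain, and its difference was -1.34 without shENO1 number 3 and -2.78 without wild type number 3. TCP11L2 (-1.98) and KLHL24 (-1.80) also stood among the 10. BCL6, the transcriptional repressor of germinal centre B cells, stood at 8.37 and 5.39 FPKM in shENO1 and wild type number 3, against 28.4 and 24.3 FPKM in shENO1 numbers 1 and 2 and 29.7 and 18.6 FPKM in wild type numbers 1 and 2 (-1.81, SE 0.21). AHRR, the repressor of the aryl hydrocarbon receptor, stood at 54.0 and 57.5 FPKM, against 162 to 232 FPKM (-1.78, SE 0.10). All of these lay outside the range of their own group in both groups.

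The knockdown was examined because it is the contrast the libraries were made for and the rule did not use it. ENO1 stood at 212, 242 and 368 FPKM in shENO1 numbers 1 to 3, against 927, 998 and 1747 FPKM in wild type numbers 1 to 3. Within numbers 1, 2 and 3 the shENO1 level was 22.9%, 24.3% and 21.1% of wild type, and both number 3 libraries lay highest in their own group, with a difference of 0.78 (SE 0.08). limma called 0 of 17870 genes between shENO1 and wild type at an adjusted p under 0.05 and a log2 fold change over 1 in either direction (353 at an unadjusted p under 0.05, 1.98%), with ENO1 at a log2 fold change of -2.14 and an adjusted p of 0.518. With number 3 or not as a term in the fit, 1 gene was called (0.0056%), ENO1, with a limma adjusted p of 0.00115, and 969 genes (5.42%) had an unadjusted p under 0.05. With the replicate number as a block, ENO1 was again the 1 gene called (0.0056%), with a limma adjusted p of 0.00374, and 1349 genes (7.55%) had an unadjusted p under 0.05. The 4 other genes with the smallest knockdown p were RN7SL430P, GTF3AP2, RN7SL426P and the complement component C3. RN7SL430P, GTF3AP2 and RN7SL426P were each listed at 0 in all libraries of 1 group, so the filter admitted them through the pattern tested. C3 stood at 9.36, 11.01 and 11.5 FPKM in shENO1, against 32.8, 23.4 and 26.1 FPKM in wild type. The 5 marker genes had knockdown log2 fold changes of -0.41 to 0.07, with no limma adjusted p below 0.99986 without the number in the fit, 0.923 with number 3 as a term and 0.650 with the block. Of 847 distinct genes on the 44 lists 0 passed the knockdown test, 16 had an unadjusted p under 0.05 and 69 did so with number 3 as a term. The labels do not say that replicates were separate cultures, so these p-values measure the spread between samples, which may be technical.

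Whether the number 3 difference was of another size in shENO1 than in wild type was tested with an interaction term. In each group number 3 is 1 library, assumed to vary like numbers 1 and 2, so that the test rests on the spread between numbers 1 and 2 alone. limma called 3 of 17870 genes (0.0168%) at an adjusted p under 0.05, and 533 (2.98%) at an unadjusted p under 0.05. The 3 were AP001525.1, AL590762.4 and RPS28P7, none of them protein coding and each listed at 0 in at least 1 library. AP001525.1 and AL590762.4 reached 0.5 FPKM in exactly the 3 libraries where they were high, so the filter admitted them through the pattern tested. The 5 markers had no limma adjusted interaction p below 0.9996, and of 847 list genes 0 passed and 27 had an unadjusted p under 0.05. In CCL2 the number 3 difference was 3.38 in shENO1 and 4.23 in wild type, and in AIF1 it was -4.08 and -3.69. In data simulated at this size the interaction test recovered 0% of differences of 1 or 2 log2 units and 47% of those of 3 log2 units among 17870 genes, so differences of these smaller sizes were not detectable.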

How the data were processed

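Total RNA of 6 libraries (3 shENO1, 3 wild type) was sequenced from TruSeq libraries. The labels name a column kit for RNA extraction, whereas the methods of the study name TRIzol. The authors deposited 1 table of FPKM, made with STAR, Cufflinks and Cuffnorm on hg38 (GRCh38) per the labels. Versions, the scaling method and strandedness are not given in the sources used here, so overlapping and antisense genes cannot be separated. FPKM hold no counts, and the depth of each library is known only relative to the others: the lowest values of 2 libraries form ratios of whole numbers, and the relative depth was estimated from their most frequent ratio, within 0.02 log2 units of which lay 11.7% to 15.5% of 2857 to 3231 genes. The 5 small RNAs RN7SL1, RN7SL2, RN7SK, RPPH1 and RMRP held 43.8% to 49.0% of the summed FPKM, which was 958697 to 1053890 per library.

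Gene IDs were matched to GENCODE release 29 (58010 of 58273 matched), and 27 symbols that the table gives as dates were replaced by those of GENCODE. Genes with at least 0.5 FPKM in 3 libraries entered fits of log2(FPKM + 0.5) with limma 3.58.1 and an intensity trend (R 4.3.3, Python 3.11.15, pandas 2.3.3), on which fold changes of low genes are understated. The number 3 difference had the group as a term and no test. The knockdown (no covariate) and the interaction were two-sided tests with Benjamini-Hochberg adjustment over all genes, read at an adjusted p under 0.05 and, for the knockdown, a log2 fold change over 1. Recovery was simulated in data of this size that held no number 3 difference. There the knockdown test recovered 47%, 79.5% and 91.5% of changes of 1, 2 and 3 log2 units among 17870 genes. The real libraries hold that difference and the knockdown fit has no term for it. These shares therefore overstate the recovery for genes that differ by number. For ENO1 the SE of the knockdown change was 0.29, and 0.08 with number 3 as a term.

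The members and the gene lists were chosen with earlier results of these data known. Named genes were the 5 markers, ENO1, the 10 largest differences each way among protein-coding genes at a mean of 5 FPKM or more, up to 6 counted members of a list, and the 5 smallest p of each test; other list members were named as examples after their values were seen. Deviations from the group means correlated at 0.312, 0.176 and 0.491 between libraries of the same number and at -0.39 to 0.144 between those of different numbers. The number 3 libraries were chosen for standing apart, so their values cannot show a pairing. For numbers 1 and 2 a pairing was weak. shENO1 number 2 correlated at 0.176 with wild type number 2 and at 0.144 with wild type number 1. The differences of number 2 minus number 1 correlated at 0.117 between the groups. No label says what a number marks. Alternatives were other pseudocounts, filters and scalings, protein-coding genes alone, each library left out, number 1 or 2 alone, the replicate block, number 3 as a term, and library weights. Sequences before gene starts are from RefSeq (GRCh38.p14). A few genes are not reported here by name.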

Additional observations from a re-analysis of the deposited data

Results flagged for a closer look

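The interaction test passed 3 genes, and in each the fit put the number 3 difference in shENO1 above that in wild type. Number 3 is 1 library in each group, so the test sees only the spread between numbers 1 and 2. AP001525.1 stood at 19.5 FPKM in shENO1 number 3 and was listed at 0 in shENO1 numbers 1 and 2, while in wild type number 3 it was listed at 0, against 4.79 and 5.33 FPKM in wild type numbers 1 and 2. Its fitted differences were 8.79 log2 units apart. AL590762.4, a pseudogene, had the same pattern, with 4.86 FPKM in shENO1 number 3 against 0 in shENO1 numbers 1 and 2, and 0 in wild type number 3 against 12.1 and 13.4 FPKM in wild type numbers 1 and 2, which put its differences 8.15 log2 units apart. RPS28P7, a pseudogene of the ribosomal protein gene RPS28, stood at 49.2 FPKM in shENO1 number 3, against 11.6 and 10.1 FPKM in shENO1 numbers 1 and 2, and at 0 in wild type number 3, against 23.3 and 39.6 FPKM in wild type numbers 1 and 2, a gap of 8.08 log2 units. AP001525.1 and AL590762.4 passed the filter only through the 3 libraries where they were high, which is the pattern tested. Each gap rests on libraries listed at 0, so its size depends on the pseudocount, and an entry of 0 in this kind of table can be a failed estimate. The limma adjusted p was 0.0283 for AP001525.1, AL590762.4 and RPS28P7, and 0 genes passed with the replicate number as a block. Each group holds 3 libraries, too few for a check of single libraries against the rest of their group.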

How the results depend on the processing

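The count of genes higher in number 3 stayed within 1.5 times its value of 2024 under every alternative run, and the count lower (2635) did so except with 1 FPKM required in all 6 libraries (1665) and over protein-coding genes alone (1445), where fewer low genes are tested. Leaving out each library in turn gave 1949 to 2758 higher and 2615 to 3678 lower. These counts follow a looser rule. Without a number 3 library the difference and the count rest on the other group alone, so agreement of both groups is not required. Without a number 1 or 2 library, or against number 1 or 2 alone, number 3 is set against 1 library in the group or groups concerned. Past 1 log2 unit the 305 higher genes became 604 without shENO1 number 3, 490 without wild type number 3 and 551 against number 1 alone, and the 593 lower genes became 1122 without shENO1 number 3, 959 against number 1 alone, 1034 and 327 with pseudocounts of 0.1 and 1, 392 with quantile normalization, 257 with 1 FPKM in all 6 libraries and 252 over protein-coding genes alone. Higher genes made up 43.4% of the counted genes, and 33.7% with libraries scaled to the same FPKM sum, 47.2% with the median ratio and 50.9% with quantile normalization. For the genes named for their number 3 difference, ENO1 included, shifts were compared with the residual SD of the fit to the 6 libraries. Under alternatives 399 values of these genes moved by less than 1 such SD and 29 by more, and 0 turned their sign. The replicate block, which treats libraries of the same number as pairs, left 1 gene lower in the knockdown, ENO1, also with median ratio scaling (1). It changed no other knockdown call. The knockdown gave 1 lower gene with number 3 as a term, 2 (ENO1 and AL590762.4) without both number 3 libraries, and 3 lower (ENO1, RN7SL426P and TAF9) and 1 higher (RN7SL430P) with library weights, against 0 in each direction otherwise, and 0 with any 1 library left out. The interaction test passed 3 genes, and 5 with a pseudocount of 0.1, 489 without a filter, 0 with 1 FPKM in all 6 libraries, 0 over protein-coding genes alone and 0 to 2 with 1 library left out, where number 3 libraries could not be left out. The causes were not tested. AL590762.4, TAF9, RN7SL426P and RN7SL430P were named here after their values were seen. RN7SL426P and RN7SL430P passed the filter only through the libraries of 1 group, which is the pattern the knockdown test asks about. The number of libraries, 2 with number 3, and the unknown absolute depth limit the precision, most of all for genes near 0.5 FPKM.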
